A study of Mus musculus with 28 samples.

Results

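Clustered zinc finger genes were taken as the autosomal protein-coding genes of the mm9 annotation whose symbol is Zfp followed by digits and whose transcription start site (TSS) lay within 200 kb of that of another such gene, with Zfp42 left out. Of 332 autosomal Zfp symbols, 197 met this rule and 135 did not, among 21418 autosomal protein-coding genes in all. The 197 members fell into 49 clusters on 14 chromosomes, of which 25 clusters held 2 members and 14 held at least 5. Chromosome 7 carried 73 of the members in 14 clusters. At the edge of the rule, the TSS of Zfp947 was 195 kb from its nearest Zfp neighbour and counted as clustered, while those of Zfp236 and Zfp516 were 218 kb apart and did not count.

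ChIP-seq peak lists came from HATX mouse embryonic stem cells (mESCs), a haploid line that carries an X-linked Xist transgene that doxycycline can induce, grown in serum and LIF. The groups were the WT line and Spen KO clone 2, a single clone in which most of Spen, the gene of an RNA-binding repressor, is deleted. Both groups carry the transgene. The 28 samples were 16 ChIP libraries, 2 for each genotype and antibody (Oct4, H3K9me3, H3K4me3 or H3K27Ac), and 12 inputs, and the study calls the paired libraries technical replicates.

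Most genes of this family encode C2H2 zinc finger proteins, in which tandem fingers, each holding a zinc ion and reading a few bases of DNA, are joined by short conserved linkers. Many also carry a KRAB domain, which recruits the co-repressor Trim28 (KAP1) and through it the H3K9 methyltransferase Setdb1, and such proteins are known for silencing endogenous retroviruses in mESCs. The family has grown by tandem duplication, and H3K9me3 over the finger-coding 3′ exons of the genes themselves is a known feature of many cell types.

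The sequence of the members was read first, because the fingers define the family. A C2H2 finger pattern was found in the annotated coding sequence of 195 of the 197 clustered genes and in 123 of the 135 unclustered ones, with a median of 11 and 7 fingers per gene. In 191 clustered genes the fingers were encoded in 1 coding exon, against 73 unclustered genes, and in 130 clustered genes the whole finger-coding part lay inside the last 3000 bp of the gene, against 44. A KRAB-like pattern was found in 126 clustered and 35 unclustered genes. The pattern was a short stretch of residues with a required tryptophan, so a KRAB domain of another form would be missed. The DNA of 8 members discussed below shows the repeated unit, a linker of the TGEKP type followed by 1 finger. The 84 bases of each unit run 5′ to 3′ on the coding strand, and capitals mark a match to GGNGANAANCC, the DNA form of the linker (N stands for any base).
Zfp936, chr7:50444910-50444993, plus strand: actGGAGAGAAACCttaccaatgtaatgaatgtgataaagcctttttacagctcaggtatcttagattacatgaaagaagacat
Zfp934, chr13:62619649-62619732, minus strand: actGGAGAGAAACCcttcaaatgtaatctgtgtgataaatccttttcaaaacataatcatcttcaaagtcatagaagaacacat
Zfp873, chr10:81522701-81522784, plus strand: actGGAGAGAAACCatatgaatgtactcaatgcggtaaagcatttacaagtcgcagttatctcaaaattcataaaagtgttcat
Zfp605, chr5:110557768-110557851, plus strand: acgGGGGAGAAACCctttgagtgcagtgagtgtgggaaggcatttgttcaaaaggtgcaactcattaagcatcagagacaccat
Zfp27, chr7:30680457-30680540, minus strand: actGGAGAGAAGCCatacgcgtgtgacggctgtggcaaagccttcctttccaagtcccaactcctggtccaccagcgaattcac
Zfp458, chr13:67358581-67358664, minus strand: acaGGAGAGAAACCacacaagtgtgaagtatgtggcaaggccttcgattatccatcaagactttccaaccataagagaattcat
Zfp629, chr7:134755553-134755636, minus strand: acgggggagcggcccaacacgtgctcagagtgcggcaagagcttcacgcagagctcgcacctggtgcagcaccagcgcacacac
Zfp628, chr7:4870635-4870718, plus strand: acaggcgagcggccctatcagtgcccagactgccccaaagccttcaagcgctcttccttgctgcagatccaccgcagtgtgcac

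The units of Zfp936 and Zfp934, which lie on different chromosomes, were identical at 61 of 84 bases (72.6%), while those of Zfp936 and Zfp629 were identical at 39 (46.4%). Zfp629 and Zfp628 encode the linker with another choice of codons and an arginine in place of the lysine, so that their units hold no match. Searched on both strands with overlaps counted, the last 3000 bp held at least 3 linker matches in 121 clustered genes (61.4%) and in 40 unclustered genes (29.6%), against 1.38% of all genes. The share of unique sequence was read as a rough guide to how well short reads can be placed. The study's paired reads were longer than the 31-base words used. A repeated word thus does not mean that a read pair could not be placed. The share of 31-base words of the last 3000 bp that occur once in the genome had a median of 94.8% in clustered genes and was lowest at 5.49% in Zfp781, 1 of the 2 members with no finger found, 7.003% in Zfp960 and 8.55% in Zfp97.

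H3K9me3 was read as the share of a window covered by the deposited domains, with 1 combined list per genotype, so that WT and Spen KO values have no replicate error and no test between genotypes was possible. A 3′ end (the last 3000 bp, or the whole of a shorter gene) was called where at least 50% of it was covered. In WT, 43 of 197 clustered genes were called (21.8%, 95% Wilson interval 16.6 to 28.1), against 17 of 135 unclustered genes (12.6%, 8.01 to 19.2) and 8.84% of all genes. In Spen KO, 39 clustered genes (19.8%, 14.8 to 25.9) and 14 unclustered genes (10.4%, 6.28 to 16.7) were called, against 8.09% of all genes. The clustered share exceeded the unclustered share by 9.23 percentage points in WT (Newcombe interval 0.794 to 17.0) and by 9.43 points in Spen KO (1.42 to 16.8). In WT this difference was not seen among genes with at least 3 linker matches or among those with a KRAB-like pattern, as given below. It also depended on the settings. With the stronger 50% of each list it was 2.00 points in WT (-4.81 to 8.14) and 2.28 in Spen KO (-4.76 to 8.65), and with clusters drawn within 100 kb it was 1.88 (-6.51 to 10.1) and 6.31 (-1.65 to 14.1). Its interval included 0 in 5 of 15 alternatives in WT and in 7 of 15 in Spen KO. Intervals here cover counting error over genes only, and neighbours in a cluster are not independent.

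**Figure D1:**
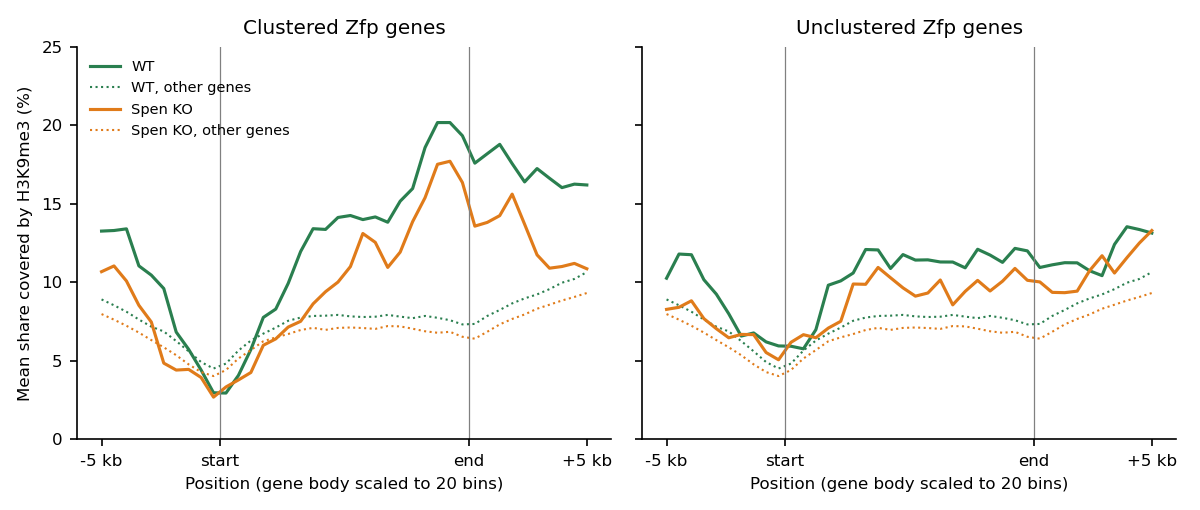
Mean share of sequence covered by H3K9me3 domains (y axis, percent) from 5 kb before the TSS to 5 kb past the gene's end (x axis, gene body scaled to 20 bins) for 196 clustered and 133 unclustered Zfp genes of at least 2000 bp, with WT in green, Spen KO in orange and all other genes dotted. In clustered genes the mean rose from 2.94% in the first bin to 20.2% in the 19th bin in WT and from 3.32% to 17.7% in Spen KO, while unclustered genes lay between 10.9% and 12.2% in WT from the 9th bin on.

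Coverage built up towards the 3′ end of the members, as the profile along the gene shows. Only 16 clustered genes had any H3K9me3 within 1000 bp of the TSS in WT (8.12%) and 13 in Spen KO (6.60%), against 8.18% and 7.84% of all genes. Of the 43 called 3′ ends in WT, 36 had no H3K9me3 at the promoter, and in Spen KO 34 of 39 had none. Promoter H3K9me3 was still more frequent among called members than among all 197, in both genotypes. The finger-coding part itself was at least 50% covered in 43 clustered genes in WT (21.8%) and in 37 in Spen KO (18.8%). Of unclustered genes, 16 were so covered in each genotype (11.9%). Among genes with a finger, the clustered share was higher by 9.04 points in WT (0.230 to 17.0). In Spen KO it was higher by 5.97 points, with an interval that included 0 (-2.64 to 13.7). Each called 3′ end lay under a domain of its own, and these domains had median widths of 7800 bp (WT) and 4600 bp (Spen KO). Most members lay at either end of the scale. In both genotypes 144 members had none of the 3′ end covered, 23 were covered in full in WT and 16 in Spen KO. Just inside the threshold in WT lay Zfp114 at 53.3%, and just outside lay Zfp273 at 46.7%.

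Over the gene body, the clustered and unclustered shares lay closer together. At least 50% of the gene was covered in 21 clustered (10.7%) and 11 unclustered genes (8.15%) in WT, against 6.24% of all genes, and in 13 (6.60%) and 9 (6.67%) in Spen KO, against 5.58%. The members with the highest gene body coverage in WT were Zfp850, Zfp936 and Zfp934 at 100%, Zfp873 at 97.5%, Zfp964 at 94.5% and Zfp629 at 87.3%. In Spen KO their gene body coverage was 44.1%, 100%, 71.9%, 0%, 49.7% and 88.6% in the same order. Zfp936 and Zfp629 thus had similar values in both genotypes, Zfp873 had no domain left, and the other 3 had lower values. Zfp629 differed from the rest of this set in holding H3K4me3 at its TSS in both genotypes, and its domain was in the top of the list by score, at percentile 97.3 in WT and 91.7 in Spen KO.

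Several of these genes had short annotated models. Zfp850 spanned 941 bp, Zfp873 2913 bp, Zfp934 3219 bp, Zfp936 3312 bp and Zfp964 4908 bp, against a median of 13626 bp for the members. The coding sequences annotated for Zfp850, Zfp934, Zfp936 and Zfp964 did not open with ATG, and the 30 bases before the annotated start of 3 of them ended in AG (capitals), the bases that end an intron.
Zfp936, chr7:50442510-50442539, plus strand: tttgtgttgtacatatgtatgggattttAG
Zfp934, chr13:62621905-62621934, minus strand: tcttttgtacacgtttatgggatgctctAG
Zfp964, chr8:72183132-72183161, plus strand: tgttgtcaatcaagtatgtgcaatgtttAG

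Among all members, 21 coding sequences did not open with ATG and 13 starts followed AG, 23 genes in all with either. For these the annotated start may not be the promoter, which touches every promoter value below. Without them the 3′ end was called in 36 of 174 clustered genes in WT (20.7%) and in 35 in Spen KO (20.1%), and the gene body in 15 (8.62%) and 10 (5.75%). Such signs need not mark every incomplete model. Zfp873, at 2913 bp and with no H3K4me3 in either genotype, showed neither of them, so the remaining genes may still include doubtful starts.

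Between genotypes, a 3′ end was counted as lower or higher in Spen KO where its coverage differed by at least 25 percentage points. By this count 14 clustered genes were lower (7.11%) and 6 higher (3.05%), against 3.61% and 2.44% of all genes. Only a 3′ end covered in WT can be lower in Spen KO. In WT 24.4% of clustered 3′ ends had any coverage, against 14.1% of unclustered genes and 11.3% of all genes. The shares of lower 3′ ends thus rest on unlike starting coverage. Among unclustered genes 5 were lower (3.70%) and 2 higher (1.48%). Mean 3′ end coverage of clustered genes went from 20.8% in WT to 18.02% in Spen KO, that of unclustered genes from 12.5% to 10.6% and that of all genes from 8.58% to 7.90%. The balance depended on which domains were kept. With the stronger 50% of each list, 7 members were lower and 10 higher. By the 50% call, 34 members were called in both genotypes, 9 in WT alone and 5 in Spen KO alone, against 2.54% and 1.79% of all genes for the last 2 counts. For the gene body, 14 members were lower (7.11%) and 4 higher (2.03%), against 2.13% and 1.55% of all genes and 1 each among unclustered genes.

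**Figure D2:**
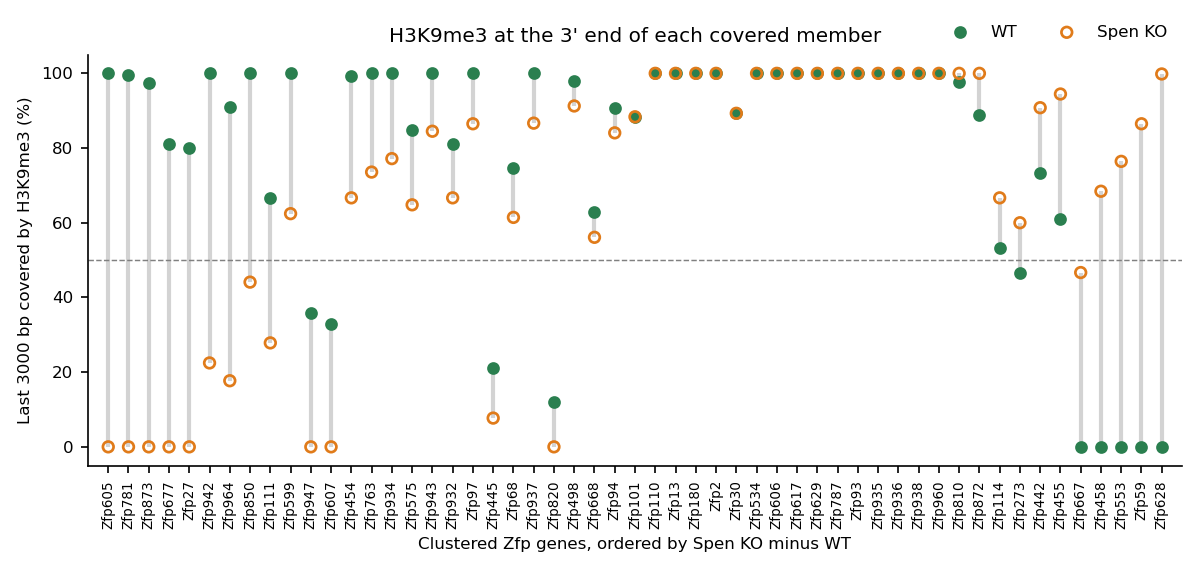
H3K9me3 coverage of the last 3000 bp (y axis, percent) of the 53 clustered Zfp genes with any coverage, in WT (filled green) and Spen KO (open orange), ordered along the x axis by Spen KO minus WT, with a dashed line at the 50% call. From Zfp605 on the left to Zfp27, 5 members went from at least 80.0% to 0, 5 members on the right went from 0 to between 46.7% and 99.8%, and a run of members in the middle stayed at or near 100% in both.

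The members with the largest decreases were Zfp605, Zfp781, Zfp873, Zfp677 and Zfp27. Of these, only Zfp27 had at least 90% unique words in its 3′ end. Zfp605 went from 100% covered in WT to 0 in Spen KO, Zfp781 from 99.4%, Zfp873 from 97.5%, Zfp677 from 81.0% and Zfp27 from 80.0%, all to 0. In WT the domain over Zfp605 was 9400 bp wide and at percentile 64.8 of its list by score, while that over Zfp27 was 2400 bp wide and at percentile 0.504. The domain at Zfp27 was thus among the weakest of the WT list, and that at Zfp605 was above the median. Zfp605, Zfp27 and 6 others of the 14 held H3K4me3 at the TSS in both genotypes, 5 held it in neither, and Zfp677 held it in WT alone. Of all members, 83.2% held it in both and 14.2% in neither.

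The members with the largest increases were Zfp628, Zfp59, Zfp553, Zfp458 and Zfp667. All of these but Zfp59 had at least 90% unique words in the 3′ end. Zfp628 went from 0 in WT to 99.8% in Spen KO, Zfp59 to 86.5%, Zfp553 to 76.4%, Zfp458 to 68.4% and Zfp667 to 46.7%, all from 0. Their Spen KO domains were 4400, 2600, 2800, 2400 and 1400 bp wide, against a median of 3800 bp in the Spen KO list. Those of Zfp59 and Zfp458 lay low in the list by score, at percentiles 8.99 and 7.98. All 6 members with higher coverage held H3K4me3 at the TSS in both genotypes, as did 83.2% of all members. At Zfp628 an H3K27Ac peak over 1776 of the 2001 bp around the TSS appeared in Spen KO together with the domain at its 3′ end.

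The share of unique 31-base words moved with these counts. Among clustered genes with at least 90% unique words, 19 of 132 3′ ends were called in each genotype (14.4%), while among the other 65, 24 were called in WT (36.9%) and 20 in Spen KO (30.8%). Unclustered genes showed the same ordering, with 4 of 102 (3.92%) and 13 of 33 (39.4%) in WT. Within the genes of at least 90% unique words, the clustered share exceeded the unclustered share by 10.5 points in WT (2.88 to 17.9) and by 11.5 points in Spen KO (4.14 to 18.7). There 5 members were lower in Spen KO and 4 higher. In this set the number of called 3′ ends was thus the same in both genotypes.

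Chromosomes differed too. On chromosome 10, 4.40% of all genes had a lower 3′ end in Spen KO and 1.15% a higher one, and on chromosome 17 these shares were 4.58% and 0.550%. Of the members there, 2 of 3 on chromosome 10 and 4 of 29 on chromosome 17 were lower and none was higher. On chromosome 7, 4 of 73 members were lower and 4 higher, against 5.02% and 4.10% of all genes. The part of read placement and of the chromosome in these counts was not tested.

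The called 3′ ends were also counted by sequence feature. With at least 3 linker matches, 33 of 121 clustered 3′ ends were called in WT (27.3%, Wilson interval 20.1 to 35.8), against 10 of 76 with fewer (13.2%, 7.31 to 22.6). With a KRAB-like pattern 29 of 126 were called (23.0%, 16.5 to 31.1), against 14 of 71 without (19.7%, 12.1 to 30.4). A CpG ratio at the TSS (observed over expected CpG within 500 bp on either side) of at least 0.6 went with 12 of 88 called 3′ ends (13.6%, 7.98 to 22.3), against 31 of 109 below it (28.4%, 20.8 to 37.5). The intervals overlapped in all 3 splits, which does not show that the shares were alike. No interval of the difference was computed for them. The splits were drawn on the same genes and are given as descriptions with no test. Of unclustered 3′ ends with at least 3 linker matches, 12 of 40 were called in WT (18.1 to 45.4). With a KRAB-like pattern 9 of 35 were (25.7%, 14.2 to 42.1). In both subsets the clustered share was not the higher one. It was higher with fewer matches (13.2% against 5.26%), without the pattern (19.7% against 8 of 100) and on both sides of the CpG ratio. The part of sequence features in the clustered excess was not tested.

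The clusters were unlike each other. In each genotype 27 of the 49 clusters had at least 1 called 3′ end and 22 had none, and the 5 clusters with most called 3′ ends held 17 of the 43 in WT and 15 of the 39 in Spen KO. The largest cluster, 17 members from Zfp712 to Zfp273 on chromosome 13, had 1 called 3′ end in WT and 3 in Spen KO. The next, 14 members from Zfp84 to Zfp146 on chromosome 7, had 2 and 1. The 12 members from Zfp180 to Zfp575 on chromosome 7 had 6 and 5, the highest count of any cluster, and none of these 12 matched the KRAB-like pattern. A missing match does not show that a gene lacks the domain. The 11 members from Zfp677 to Zfp943 on chromosome 17 had 3 and 1, and all 11 matched it. The fifth place was shared by 8 members from Zfp553 to Zfp629 on chromosome 7, with 1 and 2, and 8 from Zfp871 to Zfp563 on chromosome 17, with 1 in each genotype. Small clusters could be covered in full. Both members of Zfp935 to Zfp934 on chromosome 13 and both of Zfp960 to Zfp97 on chromosome 17 were called in each genotype, while the 3 members from Zfp781 to Zfp938 on chromosome 10 were all called in WT and 1 in Spen KO.

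**Figure D3:**
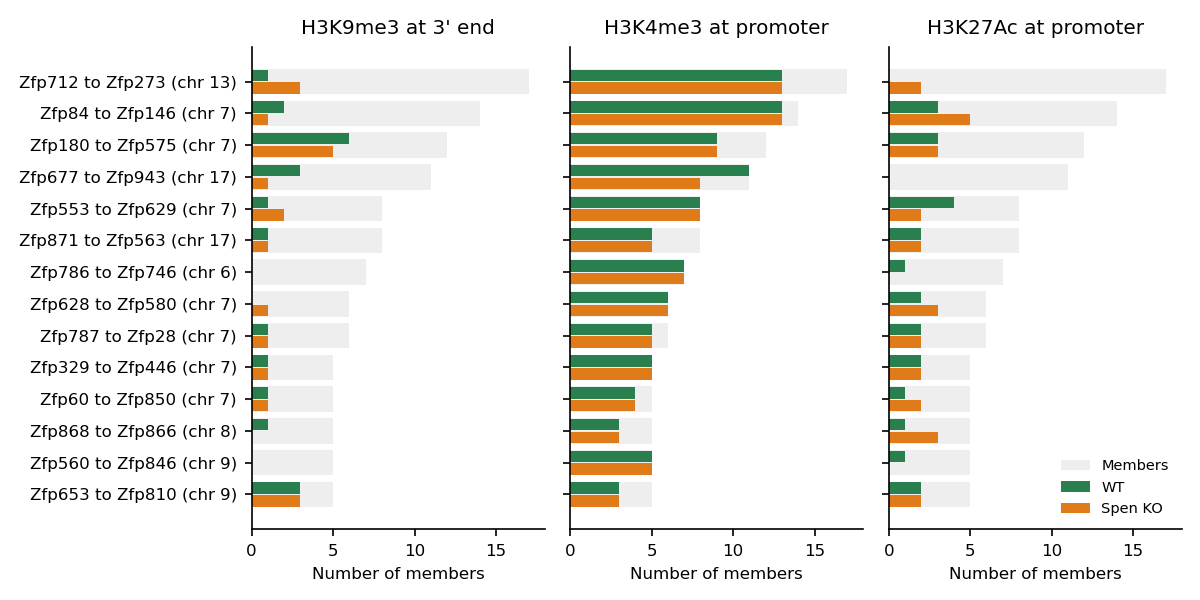
Number of members (x axis) in each of the 14 clusters with at least 5 members (y axis, named by first and last gene and chromosome) with a called H3K9me3 3′ end, an H3K4me3 peak or an H3K27Ac peak at the promoter, in WT (green) and Spen KO (orange), over the number of members (grey). H3K4me3 was at most members of each cluster, with 11 in WT and 8 in Spen KO in Zfp677 to Zfp943, while the H3K9me3 counts were highest at 6 of 12 in Zfp180 to Zfp575 (WT) and, as a share, at 3 of 5 in Zfp653 to Zfp810 (both genotypes).

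At the promoter (1000 bp on either side of the annotated TSS), a mark was counted where a peak of the combined list touched the window. H3K4me3, a mark of active or open promoters, was present at 167 of 197 clustered genes in WT (84.8%) and at 166 in Spen KO (84.3%), against 64% and 62.3% of all genes. The shares of unclustered genes were 83.0% (112 of 135) and 82.2% (111), with intervals that overlapped those of clustered genes (79.1 to 89.1 and 78.5 to 88.7). In both genotypes together 164 members were marked, 3 in WT alone (Zfp677, Zfp53 and Zfp820), 2 in Spen KO alone (Zfp879 and Zfp773) and 28 in neither, against 2.21% of all genes in WT alone and 0.448% in Spen KO alone. The 3 marked in WT alone were all in the chromosome 17 cluster from Zfp677 to Zfp943. In the 28 unmarked members, 14 coding sequences did not open with ATG, against 7 in the 169 marked members, and their median length was 5025 bp against 14486 bp. Without the 23 genes with such starts, the share with H3K4me3 was 91.4% in WT and 90.8% in Spen KO.

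H3K27Ac, a mark of active promoters and enhancers, was less frequent at clustered than at unclustered genes. A peak was present at 41 clustered genes in WT (20.8%, 15.7 to 27.01) and at 46 in Spen KO (23.4%, 17.99 to 29.7), against 18.8% and 20.1% of all genes. Of the unclustered genes, 50 (37.0%, 29.4 to 45.4) and 51 (37.8%, 30.04 to 46.2) had one. The clustered share was lower by 16.2 points in WT (interval of the difference -26.0 to -6.35) and by 14.4 points in Spen KO (-24.4 to -4.40). Thus 126 of the 167 members with H3K4me3 in WT had no H3K27Ac peak. By position, the mark was at 23 of 73 members on chromosome 7 in WT (31.5%) and 18 of 124 elsewhere (14.5%), a split that was not tested, against 18.9% of all genes on chromosome 7, and none of the 11 members from Zfp677 to Zfp943 held it in either genotype. Promoters rich in CpG accounted for most of the marked members. With a CpG ratio of at least 0.6, all 88 promoters had H3K4me3 and 29 had H3K27Ac in WT (33.0%), against 79 (72.5%) and 12 (11.0%) of 109 below it. A ratio of at least 0.6 was found at 44.7% of clustered and 64.4% of unclustered genes. Unclustered genes had H3K27Ac in WT at 38 of 87 such promoters (43.7%) and at 12 of 48 below the ratio, so the clustered share was the lower one on both sides of it.

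**Figure D4:**
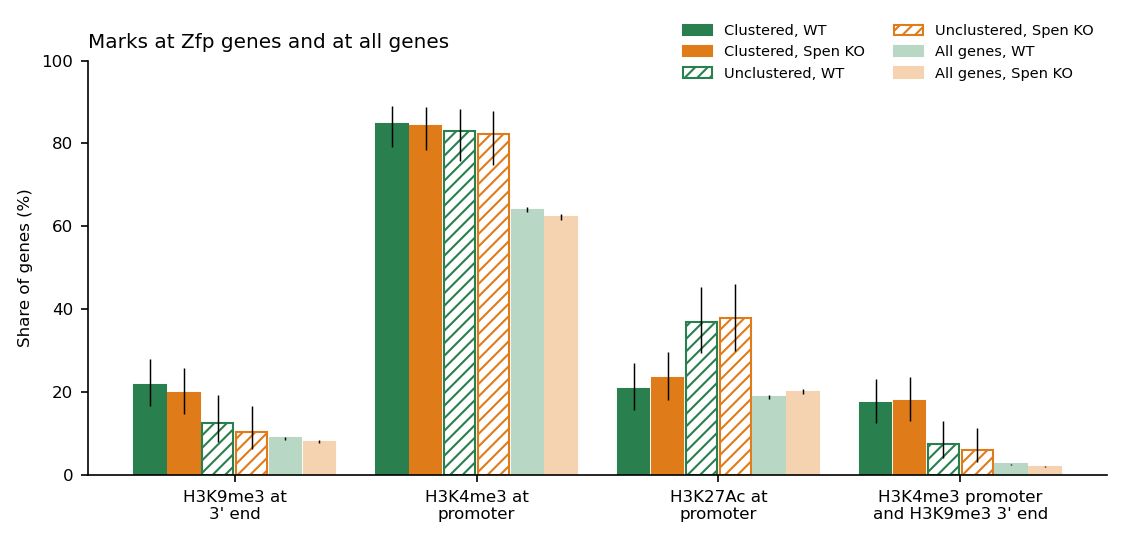
Share of genes (y axis, percent, from 0) with a called H3K9me3 3′ end, promoter H3K4me3, promoter H3K27Ac, or H3K4me3 and a called 3′ end together, for clustered Zfp genes (filled), unclustered Zfp genes (hatched) and all autosomal protein-coding genes (pale), in WT (green) and Spen KO (orange). Bars carry 95% Wilson intervals, which cover counting error over genes only. Clustered genes stood above unclustered ones for H3K9me3 (21.8% against 12.6% in WT) and below them for H3K27Ac (20.8% against 37.0%).

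Some genes carried both H3K4me3 at the TSS and H3K9me3 at the 3′ end. This pair was found at 34 clustered genes in WT (17.3%) and 35 in Spen KO (17.8%), against 10 (7.41%) and 8 (5.93%) unclustered genes and 2.55% and 2.05% of all genes. Among members with H3K4me3 in WT the 3′ end was called in 34 of 167 (20.4%), and among the 30 without it in 9 (interval 16.7% to 47.9%). All 3 marks, with H3K27Ac at the TSS as well, were at 13 members in WT and 12 in Spen KO. In WT, 3 of the 50 unclustered genes with H3K27Ac had a called 3′ end, and all 50 had H3K4me3. The share with all 3 marks over all genes was not counted, so these counts have no background. Zfp110, the gene of a neurotrophin receptor-interacting factor, was among the members with all 3 marks in both genotypes. Its 3′ end was covered at 100% in both, and H3K27Ac peaks covered 561 bp of its promoter in WT and 396 bp in Spen KO.

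H3K27Ac peaks in 1 genotype alone were found at 14 members in Spen KO, against 4.07% of all genes, and at 9 in WT, against 2.81%. These counts are 7.11% and 4.57% of the members. At 13 of the 14 the 3′ end had no H3K9me3 in either genotype, Zfp628 being the exception, and H3K4me3 was at the TSS in both genotypes at 13 of the 14, with Zfp459 lacking it in both. Most members were alike in this. Of all 197, 144 had no H3K9me3 at the 3′ end in either genotype, and 83.2% held H3K4me3 in both. All 9 members with the mark in WT alone held H3K4me3 in both genotypes, and 2 of them, Zfp97 and Zfp932, had a called 3′ end in WT.

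By score, the 8 strongest in Spen KO alone were Zfp961, Zfp868, Zfp459, Zfp213, Zfp628, Zfp715, Zfp397 and Zfp658. The combined list gives a score for each of 2 libraries without naming them. The peak at Zfp961, the gene of a KRAB zinc finger protein of a cluster on chromosome 8, was at percentiles 69.9 and 53.7 of the Spen KO list in the 2 libraries and covered 777 bp of the promoter. That at Zfp868 was at percentiles 40.1 and 78.6, and that at Zfp658 at 10.9 and 53.7, so the 2 libraries ranked the same peak differently. The 8 strongest in WT alone were Zfp771, Zfp266, Zfp263, Zfp97, Zfp932, Zfp418, Zfp746 and Zfp655. Zfp771 was at percentiles 50.7 and 71.9 of the WT list, Zfp266 at 65.0 and 46.7, and Zfp263 at 69.2 and 6.35. Zfp746 encodes PARIS, a repressor of the PGC-1α gene, and was at 38.6 and 29.6. Most of these peaks lay near or below the middle of their lists. Across all members with a peak, the WT medians of the 2 libraries were at percentiles 60.3 and 51.3, and the Spen KO medians at 45.2 and 57.8.

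The sequences before 3 of these starts and that of Zfp628 show the range of CpG content among promoters whose H3K27Ac differed. Each run gives the 200 bases before the annotated TSS on the gene's strand, with CpG in capitals.
Zfp961 (Spen KO alone), chr8:74474737-74474936, plus strand: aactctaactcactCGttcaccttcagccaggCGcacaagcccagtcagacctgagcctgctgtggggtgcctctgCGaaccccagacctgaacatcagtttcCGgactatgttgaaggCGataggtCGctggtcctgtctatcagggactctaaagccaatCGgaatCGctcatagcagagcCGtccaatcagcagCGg
Zfp459 (Spen KO alone), chr13:67514894-67515093, minus strand: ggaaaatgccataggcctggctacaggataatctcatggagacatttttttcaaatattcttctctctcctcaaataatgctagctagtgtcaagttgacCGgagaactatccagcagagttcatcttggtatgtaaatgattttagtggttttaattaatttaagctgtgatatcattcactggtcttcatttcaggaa
Zfp628 (Spen KO alone), chr7:4866619-4866818, plus strand: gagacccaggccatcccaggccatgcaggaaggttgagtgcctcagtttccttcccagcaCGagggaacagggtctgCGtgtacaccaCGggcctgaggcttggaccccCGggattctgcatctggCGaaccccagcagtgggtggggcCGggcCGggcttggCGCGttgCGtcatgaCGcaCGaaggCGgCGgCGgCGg
Zfp746 (WT alone), chr6:48036593-48036792, minus strand: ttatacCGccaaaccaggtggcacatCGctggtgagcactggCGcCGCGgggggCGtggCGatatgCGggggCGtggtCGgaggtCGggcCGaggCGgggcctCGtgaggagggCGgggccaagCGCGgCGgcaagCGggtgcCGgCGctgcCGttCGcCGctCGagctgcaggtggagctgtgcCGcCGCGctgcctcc

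The runs held 10, 1, 16 and 28 CpG in this order. Zfp459, with the lowest, was the member that lacked H3K4me3.

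Members with a known role were read singly. Zfp809 encodes a protein that silences retroviruses with a proline primer binding site. Its 3′ end had no H3K9me3 in either genotype, 20.7% of its gene body was covered in WT and none in Spen KO, and H3K27Ac covered 528 bp of its promoter in WT and 1265 bp in Spen KO. Zfp932, a repressor of endogenous retroviruses of the ERVK class, had 81.0% of its 3′ end covered in WT and 66.7% in Spen KO, with H3K4me3 in both genotypes and H3K27Ac over 946 bp in WT alone. It shares a cluster on chromosome 5 with Zfp605, whose 3′ end went from 100% to 0.

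Zfp568, which is known to repress a placental Igf2 transcript, had no H3K9me3 and a strong H3K27Ac peak in both genotypes, at percentiles 95.2 and 98.0 of the WT list and 96.9 and 98.7 of the Spen KO list. Zfp445, a regulator of imprinted genes, stood at the other end, with 76.8% of its gene body covered in WT and 72.9% in Spen KO, its promoter window covered in full in both, and neither H3K4me3 nor H3K27Ac. Its 3′ end was covered at 21.0% and 7.70%, so here the domain sat at the annotated start of the gene. That start had a CpG ratio of 0.239 and may not be the promoter. Zfp708, known to bind a retroviral repeat, had 16.1% of its gene body covered in both genotypes and no mark at its TSS, where its annotated coding sequence does not open with ATG. Zfp819 and Zfp961, both KRAB genes, had no H3K9me3 at the 3′ end in either genotype. The members with known silencing roles thus ranged from no coverage to 81.0% of the 3′ end (Zfp932 in WT) and 76.8% of the gene body (Zfp445 in WT).

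Oct4, the pluripotency factor encoded by Pou5f1, was called in each library separately. At clustered promoters it was found at 4 of 197 (2.03%) and 3 (1.52%) in WT and at 4 (2.03%) and 2 (1.02%) in Spen KO, against 6.64%, 3.09%, 2.68% and 2.52% of all genes in the same libraries. The genotypes overlapped, and Spen KO differed from WT by -0.254 points (exact two-sided permutation test over 2 and 2 libraries, p = 1, where the smallest possible p was 0.333). Unclustered promoters held Oct4 at 15, 8, 5 and 8 of 135. The first WT library had more promoter calls than the other 3 over all genes, although its list was the shortest. It held 1806 peaks, against 4111 in the second WT library and 2617 and 3028 in Spen KO. Zfp819 was the single member with Oct4 in more than 1 library, at 8.24-fold enrichment in WT library 2 and 5.43-fold in Spen KO library 2.

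The partners of the KRAB proteins were read in the same way. Of 13 genes of the Trim28 and Setdb1 pathway found in the annotation, all 13 held H3K4me3 in both genotypes against 64% and 62.3% of all genes. None had H3K9me3 at the 3′ end, which at 8.84% and 8.09% of all genes is near the background for a list of this size. H3K27Ac was at 11 in WT and 12 in Spen KO, against 18.8% and 20.1% of all genes, with Atf7ip, a cofactor of Setdb1, in Spen KO alone and Pphln1, a HUSH complex subunit, in neither. Of 7 mESC marker genes found, 6 held H3K27Ac in both genotypes and Esrrb held none at its annotated TSS, while none of 12 markers of fibroblasts and differentiated lineages held it in either. H3K4me3 was at 10 of these 12 in WT and 8 in Spen KO, where Col1a1 and Pax6 lacked it, so this mark did not separate the lists. Spen itself had H3K4me3 at its TSS in both genotypes and H3K27Ac in Spen KO alone, and peaks there do not test the deletion. The lists behind these values were of unequal length, with 53745 H3K9me3 domains covering 394 Mb in WT and 70268 covering 371 Mb in Spen KO, 13922 and 11932 H3K27Ac peaks, and 34823 and 31091 H3K4me3 peaks. Read depth per library is not given in these lists.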

How the data were processed

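ChIP-seq and input libraries of WT and Spen KO clone 2 mESCs were grouped by title. Per the labels and the study's methods, the authors used Bowtie2 (mm9, unique pairs), Picard for duplicates and MACS2 against input at a q-value of 0.01. The deposited H3K4me3 and H3K27Ac lists hold peaks that passed IDR (0.05) over both libraries, with a score per library. The deposited H3K9me3 lists, in steps of 200 bp, give each domain a p-value or FDR and a score. The methods name MACS2 and IDR for histone marks without exception, but these lists hold joined windows and no IDR values, so they do not match that description, and how libraries were pooled for them is not given in the sources used here. The deposited Oct4 lists give fold enrichment, a score and −log10 p and q values per library.

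Gene windows came from GENCODE vM1 on the mm9 genome, with the longest entry kept where a symbol had several. Domains and peaks were laid over the gene body, the last 3000 bp and the TSS (1000 bp on either side). Sequences were read from that genome, and fingers by pattern (C, 2 to 4 residues, C, 12 residues, H, 3 to 5 residues, H) in the longest annotated coding sequence. Overlap code was tested on simulated data. Python 3.11.15, numpy 2.4.6, pandas 2.3.3 and scipy 1.17.1 were used. Intervals are at the 95% level and read depth is unknown.

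Named members were the 6 with the highest gene body coverage in WT among called 3′ ends, the 5 largest decreases and increases of the 3′ end, up to 8 promoters with H3K27Ac in 1 genotype alone by score, those with Oct4 in at least 2 libraries, and genes of known role. Members and lists were chosen with earlier results of these data known. Genes named by other patterns were chosen after their values were seen. Alternatives covered list strength and length, window and call thresholds, promoter width, cluster distance, unique sequence, gene models and single Oct4 libraries.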

Additional observations from a re-analysis of the deposited data

How the results depend on the processing

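Of 174 recomputed values, 132 kept their direction and stayed within the interval of the reported share, within 1.5 times the reported count or, for a difference in shares, on the same side of 0 with their interval. Another 12 kept their direction with an interval that now included 0, 28 moved and 2 reversed. The 12 were all differences in called 3′ ends between clustered and unclustered genes. In WT this difference was 2.00 points with the stronger 50% of each list, 6.93 with a call at 75%, 7.75 over the last 1500 bp, 8.26 over the last exon and 1.88 with clusters within 100 kb. In Spen KO it was 2.28 with the stronger 50%, 5.87 with lists of equal length, 5.09 with a call at 75%, 6.66 over the last 1500 bp, 6.11 over the last 5000 bp, 5.97 over the finger-coding part and 6.31 with clusters within 100 kb. With the stronger 50% of each list, the clustered share of called 3′ ends was 10.2% in WT and 11.2% in Spen KO, of gene bodies 4.57% and 3.05%, of promoter H3K4me3 76.1% and 69.0% and of promoter H3K27Ac 11.7% and 13.2%, with 7 decreases and 10 increases of the 3′ end. A call at 25% gave gene body shares of 20.8% and 15.2%, and a call at 75% gave 4.06% and 1.52%, with a 3′ end share of 14.7% in Spen KO. A change of 10 points gave 23 decreases and 10 increases, and one of 50 points gave 8 decreases. Chosen after seeing the data, 3′ ends with at least 90% unique words gave 14.4% in each genotype and 5 decreases, and gene models that open with ATG and do not follow AG gave promoter H3K4me3 shares of 91.4% and 90.8%. A peak over 25% of the promoter gave an H3K27Ac share of 17.8% in Spen KO. Clusters within 100 kb gave a gene body share of 6.32% in WT and 9 decreases. The causes were not tested, other than that stricter settings count fewer domains or genes by construction. The difference in H3K27Ac kept its direction, with an interval below 0, in all 9 alternatives run for it in each genotype.

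The Oct4 difference, at -0.254 points, was 0 with a promoter of 500 bp and 0.287 with clusters within 100 kb, and ranged from -0.761 to 0.254 when single libraries were left out. With the replicate number as a block it was -0.254 (exact permutation p = 1, smallest possible p 0.5); the numbers are shared names only. The histone marks, with 1 list per genotype, allowed no paired fit.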

Other observations

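Zfp genes outside the clusters included members of the same kind. Of the 35 unclustered genes with a KRAB-like pattern, 9 had a called 3′ end in WT (25.7%, Wilson interval 14.2 to 42.1) and 8 in Spen KO (22.9%), against 8 and 6 of the 100 without the pattern. With at least 3 linker matches, 12 of 40 unclustered 3′ ends were called in WT (18.1 to 45.4) against 5 of 95 with fewer (5.26%). The clustered shares in WT were 23.0% with the KRAB-like pattern and 27.3% with at least 3 linker matches, neither above the unclustered share. Zfp57, which keeps imprinting marks, had no H3K9me3 and held H3K27Ac in both genotypes, at percentiles 99.3 and 98.8 of the WT list and 86.0 and 75.6 of the Spen KO list. Zfp369 had 95.7% of its 3′ end covered in WT and 82.4% in Spen KO, and Zfp600 100% in both, with 7.003% unique words.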
